A study of Arabidopsis thaliana with 12 samples.

Results

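Cytochrome P450 genes were read in dark-grown seedlings of Arabidopsis thaliana on 12 single-colour oligonucleotide arrays. A gene was included when 1 of its probe sets was assigned to that gene alone and its symbol began with CYP7, CYP8 or CYP9, without the cyclophilin symbols CYP71 and CYP95. This gave 23 genes of the 13286 genes that could be named and matched to RefSeq's list of genes for the TAIR10.1 assembly. That table holds 235 genes with such symbols, so the 23 are 9.79% of the named family. They are also not spread evenly over it, since 19 belong to the CYP71B subfamily, which has 36 genes in the table. The other 4 are CYP718, CYP78A9, CYP79A2 and CYP84A4. A further 2 probe sets that carry a P450 symbol together with another gene were left out, and each of the 23 genes had 1 probe set.

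The seedlings were of the Columbia accession (Col-0, called wild type) or carried ein2-5 or ein5-1, here ein2 and ein5. The EIN2 protein sits in the endoplasmic reticulum membrane and passes on the ethylene signal, while EIN5 is described in the series title as an exoribonuclease, an enzyme that degrades RNA from its 5' end. By the series text, seedlings grew in darkness in air free of hydrocarbons and either stayed in air or received ethylene at 10 ppm for 4 h. With 3 genotypes this made 6 groups of 2 arrays. Each mutant was represented by 1 allele, and the labels do not state whether replicates were grown apart. The p-values therefore measure only how far these samples scatter, and that scatter may be technical. The labels differ on the culture, with 3 days at 24 °C in the series text and for ein2 in air replicate 1 and 5 days at 25 °C for the other 11 samples, whose text also speaks of ethylene for the air samples. The extraction protocol names mature leaves, while the other labels name seedlings.

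Cytochrome P450 enzymes are haem proteins, mostly held in the membrane of the endoplasmic reticulum, that insert an oxygen atom into small molecules with electrons from a reductase. In plants they build and inactivate hormones, make lignin precursors, pigments, cuticle lipids and defence compounds, and detoxify foreign chemicals. CYP71 is a large plant family, and many of its members act in the defence metabolism of particular lineages. Genes of the CYP71B subfamily often lie side by side in the Arabidopsis genome.

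Levels are given as scaled intensities, which describe 1 probe set across arrays and are not compared between genes. Of the 23 probe sets, 12 had a mean over all arrays in the lowest 20% of the array's probe sets, below an intensity of 142.6, and 11 lay above it. A gene is called here when its adjusted p is under 0.05 in the limma fit over all 22746 probe sets, and a log2 change is written with ± its standard error. The median standard error of a difference between groups was 0.21 for the 11 brighter genes and 0.77 for the 12 dim ones, so changes of the dim genes were measured with far less precision. The genes mutated in ein2 and ein5 were not among the named genes, so the genotype labels were not checked on them. Of the fixed tissue markers, 2 of 10 for green leaf, 3 of 7 for root and root hair, 0 of 4 for dark-grown seedlings and 0 of 9 for seed were measured and named, so the dark-grown state of the tissue was not checked either. The leaf markers were present, with RCA, which encodes Rubisco activase, at 14753 to 34232.

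CYP718 rose on ethylene in all 3 genotypes, with the smallest adjusted p of the 23 genes in each. Its signal was 660.3 and 546 in wild type in air and 4877 and 4795 after ethylene. In ein5 it was 72.3 and 168 in air and 1438 and 1329.9 after ethylene. In ein2 it was 48.7 and 67.0 in air and 1045 and 1196 after ethylene. In each genotype both ethylene arrays lay above both air arrays. The mutant signals after ethylene lay above wild type in air and below wild type after ethylene, without overlap. CYP718 is the single named member of its family here and has no role in the fixed lists.

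The log2 rise of CYP718 was 2.98 ± 0.31 in wild type (limma, adjusted p = 2.87e-05), 3.46 ± 0.31 in ein5 (adjusted p = 6.03e-05) and 3.95 ± 0.31 in ein2 (adjusted p = 1.72e-05). As ratios of group mean signals these were 8.02-fold, 11.5-fold and 19.4-fold. The CYP718 air means of 119.9 in ein5 and 57.9 in ein2 lay below 142.6, in the range of the dim genes. No detection call is given for such signals, so the size of the mutant ratios is uncertain and their order is not interpreted. The mutant responses were not shown to differ from that of wild type. The difference was 0.48 ± 0.44 for ein5 (95% interval -0.47 to 1.43, adjusted p = 0.76) and 0.97 ± 0.44 for ein2 (95% interval 0.02 to 1.92, adjusted p = 0.282). With an offset of 64 in place of 16 these differences were 0.14 (adjusted p = 0.93) and 0.40 (adjusted p = 0.645). The 2 air arrays of ein5 stood apart from each other. Without ein5 air 1 the rise in ein5 was 2.93 and its difference from wild type -0.05, and without ein5 air 2 they were 3.99 and 1.01.

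CYP718 was also lower in both mutants than in wild type, in either gas. In air wild type averaged 603 ± 81.0, ein5 119.9 ± 67.4 and ein2 57.9 ± 12.9 (mean ± SD, n = 2 each). The log2 difference was -2.28 ± 0.31 for ein5 (limma, adjusted p = 0.00217) and -3.07 ± 0.31 for ein2 (adjusted p = 7.97e-05). After ethylene wild type averaged 4836 ± 57.8, ein5 1384 ± 76.8 and ein2 1121 ± 107 (SD, n = 2). Wild type then exceeded ein5 by 3.49-fold and ein2 by 4.31-fold in mean signal, with log2 differences of -1.79 ± 0.31 (adjusted p = 0.00479) and -2.10 ± 0.31 (adjusted p = 0.000506). These comparisons share the wild-type arrays. Without ein2 air 1, whose labelled culture differs, the ein2 difference in air was -2.89. The call in air for ein5 was lost without a variance trend over intensity (adjusted p = 0.0549) and when the compared groups alone were fitted (adjusted p = 0.0708), and it was -1.75 and -2.80 without ein5 air 1 and 2. The call for ein5 after ethylene was lost without ein5 ethylene 2 (adjusted p = 0.0572).

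The summed signal of the measured root and root hair markers had the same order of air and ethylene as CYP718 in each genotype. EXPA7 and EXPA18 encode expansins of root hairs and PRX44 a peroxidase of root hairs, and their summed signal was 9290 and 12902 in wild type in air and 16520 and 18487 after ethylene. It was 7754 and 8222 in ein5 in air and 11401 and 12174 after ethylene. In ein2 it was 6124 and 7113 in air and 10140 and 10256 after ethylene. PRX44 weighs most in this sum, with a median signal of 6098 against 2810 for EXPA18 and 1271 for EXPA7. On ethylene 2 of the 3 were called higher in wild type and 0 in either mutant, where 3.82%, 0.774% (ein5) and 0.475% (ein2) of all probe sets were called higher. Against wild type in air, 1 of 3 was called lower in ein5 and 2 of 3 in ein2, and after ethylene 0 and 3. Of all probe sets 3.77% and 1.47% were called lower in air and 2.93% and 3.47% after ethylene. None was at 0 on any array. The 2 measured leaf markers summed to 23109 and 25173.5 in ein5 in air and 27832 and 25835 after ethylene. In ein2 their sum was 25999.5 and 24399 in air and 26296 and 28070 after ethylene. In wild type the gases overlapped, at 21020 and 30643 in air and 26088 and 42635 after ethylene. None of the leaf markers was called higher on ethylene. In both mutants the order was thus not particular to the root markers. The part of root or leaf tissue in the CYP718 result was not tested. In whole seedlings fewer cells of a type and less RNA per cell cannot be told apart.

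**Figure D1:**
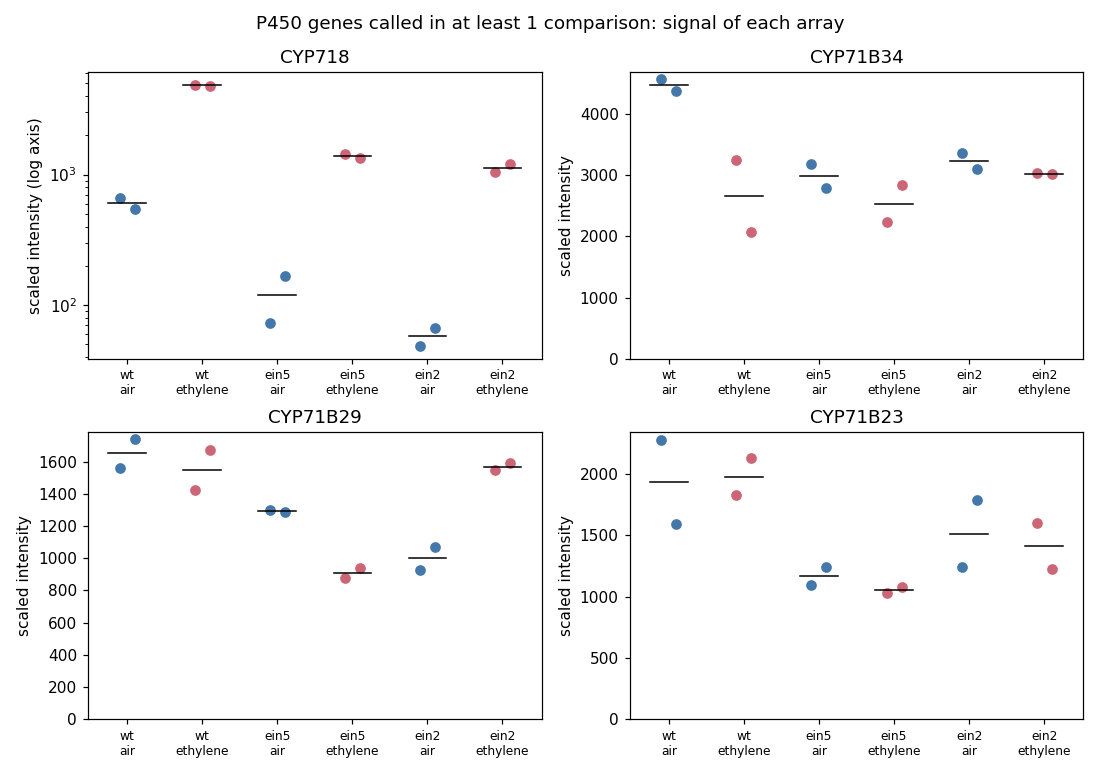
Scaled intensity of the 4 P450 genes called in at least 1 comparison, by group; each point is 1 array, blue in air and red after ethylene, and the line is the mean of the 2 arrays. The CYP718 axis is logarithmic and the others start at 0; CYP718 was higher after ethylene in all 3 genotypes, while CYP71B34 was highest in wild type in air.

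In wild-type seedlings, 4 h of ethylene raised CYP718 and lowered CYP71B34; no other P450 gene was called. CYP71B34 gave 4564 and 4381 in air and 3244 and 2076 after ethylene, so that both ethylene arrays were lower but differed from each other. Its mean fell from 4472 ± 129.7 to 2659.9 ± 826 (SD, n = 2), a log2 change of -0.78 ± 0.18 (limma, adjusted p = 0.011). The call was lost without wild-type ethylene 2 (-0.46, adjusted p = 0.0973), without wild-type air 1 (adjusted p = 0.0626), without a variance trend (adjusted p = 0.0827) and with only the wild-type groups fitted (adjusted p = 0.0879). The 2 calls are 8.7% of the 23 genes, against 10.1% of all probe sets, of which 3.82% were called higher and 6.28% lower.

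CYP71B34 was not called on ethylene in either mutant. It gave 3189 and 2791 in ein5 in air and 2241 and 2834 after ethylene, and the groups overlapped. In ein2 it gave 3367 and 3104 in air and 3036 and 3015 after ethylene. The changes were -0.24 ± 0.18 in ein5 (limma, adjusted p = 0.661) and -0.09 ± 0.18 in ein2 (adjusted p = 0.919). In air CYP71B34 differed from wild type by -0.58 ± 0.18 in ein5 (adjusted p = 0.0698) and -0.47 ± 0.18 in ein2 (adjusted p = 0.202). After ethylene it differed by -0.04 ± 0.18 in ein5 (adjusted p = 0.941) and 0.22 ± 0.18 in ein2 (adjusted p = 0.53). None of these genotype differences was called. The response differed from that of wild type by 0.54 ± 0.25 in ein5 (adjusted p = 0.453) and by 0.69 ± 0.25 in ein2 (adjusted p = 0.165), neither of which was called. Of all arrays, wild-type ethylene 2 had the lowest mean correlation with arrays of other groups (0.947, against 0.958 to 0.965 for the rest). The wild-type ethylene pair had the lowest replicate correlation of the groups (0.960). Its median absolute replicate difference was also the widest (0.323, against 0.188 to 0.249). The CYP71B34 differences of response rest on which wild-type ethylene array is kept. Without wild-type ethylene 1 they were 0.86 in ein5 (adjusted p = 0.0552) and 1.01 in ein2 (adjusted p = 0.0156), and without wild-type ethylene 2 they were 0.22 (adjusted p = 0.784) and 0.37 (adjusted p = 0.367).

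In the mutants CYP718 was the 1 P450 gene called on ethylene. It stood for 4.35% of the 23 genes, against 1.62% of all probe sets in ein5 (0.774% higher) and 0.514% in ein2 (0.475% higher). Over the 23 genes 8 had a positive and 15 a negative change in ein5, with a median of -0.15 against -0.05 over all probe sets. In ein2 the counts were 10 and 13, with a median of -0.09 against 0.01. In wild type they were 10 and 13, with a median of -0.02 against 0.02. In each genotype the median P450 gene lay within 0.15 log2 units of no change. No P450 gene was called for a difference of response between a mutant and wild type, where 0.532% (ein5) and 3.75% (ein2) of all probe sets were called. At an unadjusted p under 0.05 the limma fit gave 1 and 4 genes. The share of all probe sets under that unadjusted threshold was not counted, so these counts are not read as a trait of P450 genes.

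**Figure D2:**
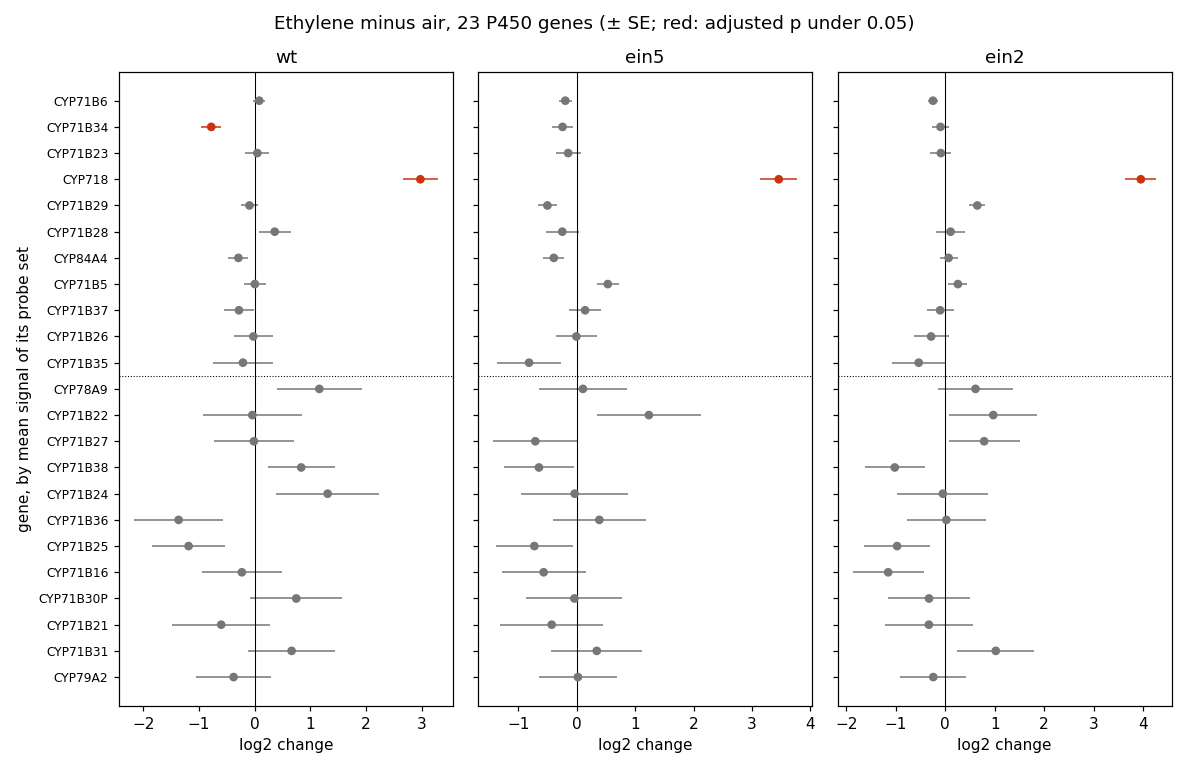
Log2 change from air to ethylene of the 23 P450 genes in wild type (wt), ein5 and ein2; points are estimates, bars are standard errors, and red marks an adjusted p under 0.05. Genes are ordered by mean signal with the brightest at the top, and the dotted line divides the 11 brighter from the 12 dim ones; CYP718 stands at 2.98, 3.46 and 3.95, and the dim genes have the longest bars.

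CYP71B29 was lower than wild type in ein2 in air and in ein5 after ethylene, and its change on ethylene was not called in any genotype. It gave 1563 and 1742 in wild type in air and 1427 and 1672 after ethylene. In ein5 it gave 1301 and 1286 in air and 877 and 943 after ethylene. In ein2 it gave 926 and 1072 in air and 1551 and 1592 after ethylene. The mutant groups did not overlap between gases, and they moved in opposite directions. The log2 change was -0.50 ± 0.16 in ein5 (limma, adjusted p = 0.164) and 0.65 ± 0.16 in ein2 (adjusted p = 0.119). The response of ein2 differed from that of wild type by 0.74 ± 0.22 (adjusted p = 0.0866) and that of ein5 by -0.41 ± 0.22 (adjusted p = 0.547).

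In ein2 in air the means of CYP71B29 were 999 ± 104 against 1653 ± 127 in wild type (SD, n = 2), a log2 difference of -0.72 ± 0.16 (limma, adjusted p = 0.026). In ein5 after ethylene they were 909.8 ± 46.6 against 1549.9 ± 173, with a log2 difference of -0.75 ± 0.16 (adjusted p = 0.0135). The ein2 call was lost without ein2 air 1 (adjusted p = 0.207), ein2 air 2 (0.0864) or wild-type air 2 (0.147), and the ein5 call without ein5 ethylene 1 (0.112), ein5 ethylene 2 (0.0697) or wild-type ethylene 2 (0.0959). With the compared groups alone in the fit the adjusted p was 0.118 for ein2 and 0.115 for ein5, and without a variance trend the ein2 value was 0.071.

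CYP71B23 was lower in ein5 after ethylene and was not called elsewhere. It gave 1029.7 and 1075 in ein5 after ethylene against 1827 and 2130.5 in wild type, without overlap. The log2 difference was -0.90 ± 0.21 (limma, adjusted p = 0.0268). In air the ein5 arrays gave 1095 and 1242 and the wild-type arrays 2281 and 1596, a difference of -0.70 ± 0.21 (adjusted p = 0.0685). The call after ethylene was lost without ein5 ethylene 1 (adjusted p = 0.157), ein5 ethylene 2 (0.129) or wild-type ethylene 2 (0.162), without a variance trend (0.127) and with the compared groups alone (0.0532). Ethylene left it within 0.15 log2 units of air in each genotype, with a standard error of 0.21, and none of these changes was called.

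Against wild type, 1 P450 gene was called in ein5 in air (4.35%, against 5.8% of all probe sets, 3.77% lower) and 2 in ein2 in air (8.7%, against 2.71%, 1.47% lower). After ethylene 3 were called in ein5 (13%, against 5.08%, 2.93% lower) and 1 in ein2 (4.35%, against 9.87%, 3.47% lower). All of these calls were lower in the mutant. Over the 23 genes ein5 in air had 5 positive and 18 negative differences, with a median of -0.14 against 0.02 over all probe sets. Positive and negative counts were 11 and 12 in ein2 in air, 9 and 14 in ein5 after ethylene and 13 and 10 in ein2 after ethylene. In ein5 in air each of the 11 brighter genes had a negative difference, from -2.28 for CYP718 to -0.002 for CYP71B5, with a median of -0.29. CYP718 is a brighter gene by its mean over all arrays, but its ein5 air mean of 119.9 lay below 142.6. Without CYP718 the other 10 ran from -0.88 for CYP71B26 to -0.002. The 11 genes were read on the same arrays, and 5 of them lie in 1 stretch of the genome. Their signs are therefore not independent replicates of the ein5 difference. Of all probe sets above the same signal 49.8% were negative. After ethylene 9 of the 11 were negative in ein5, with a median of -0.67 against -0.03 over those probe sets. In ein2 the brighter genes were 8 negative and 3 positive in air (median -0.27 against 0.005), and 5 negative and 6 positive after ethylene (median 0.02 against 0.02). The 2 comparisons of a mutant with wild type in 1 gas use the same wild-type arrays, so they are not independent of each other.

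**Figure D3:**
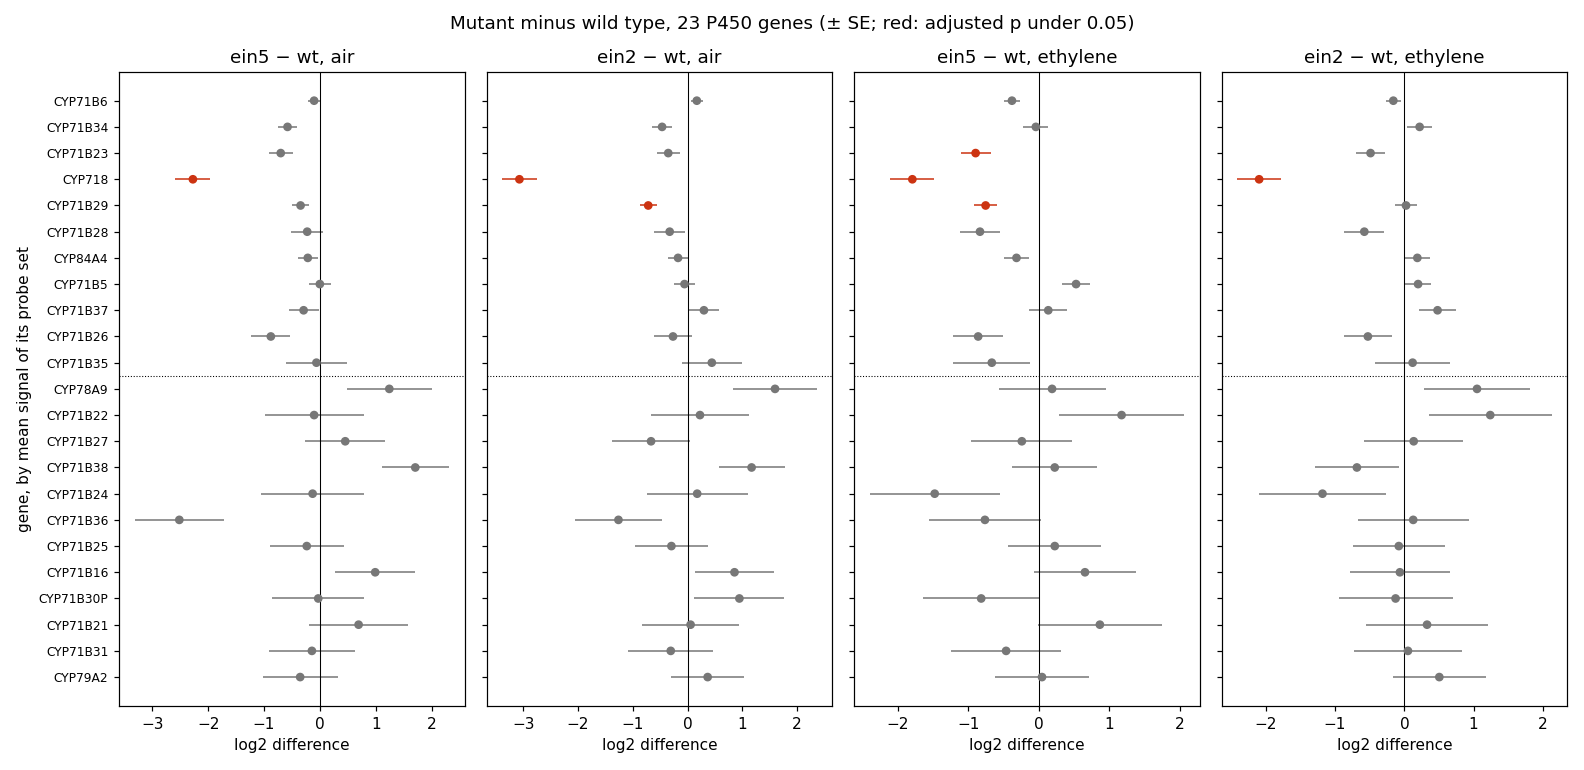
Log2 difference between each mutant and wild type (wt) in air and after ethylene for the 23 P450 genes; points are estimates, bars are standard errors, and red marks an adjusted p under 0.05. The 11 brighter genes, above the dotted line, were all at or below 0 in ein5 in air, and CYP718 was called in all 4 comparisons.

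The remaining brighter genes were not called in any comparison. CYP71B6, which encodes an enzyme that converts indole-3-acetonitrile in indole metabolism, gave 6814 to 10180.4 over the 12 arrays with a median of 8657. Its group means spanned 1.38-fold, the narrowest span of the 11, and its closest approach to a call was in ein5 after ethylene (-0.38 ± 0.11, limma, adjusted p = 0.0626). CYP84A4, which encodes an enzyme on the way to the alpha-pyrones called arabidopyrones, gave 773 to 1336 and was lowest in ein5 after ethylene, at 773 and 837. Its change on ethylene was -0.29 ± 0.18 in wild type (limma, adjusted p = 0.391) and -0.39 ± 0.18 in ein5 (adjusted p = 0.397).

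CYP71B5 gave 1309 and 1142 in ein5 after ethylene and 761 to 987 in the other groups, so the ein5 ethylene arrays were the highest. The rise in ein5 was 0.53 ± 0.19 (limma, adjusted p = 0.239). CYP71B28 gave 746 to 1976, and its 2 ein2 air arrays stood at 1471 and 788. CYP71B26 gave 177 to 323 in the 4 ein5 arrays and 411 to 486 in the 4 wild-type arrays. Its differences of -0.88 ± 0.35 in air (limma, adjusted p = 0.159) and -0.86 ± 0.35 after ethylene (adjusted p = 0.196) were not called. CYP71B37 gave 429 to 879 and CYP71B35 gave 60.8 to 434, with overlap of air and ethylene arrays in both mutants for CYP71B37.

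None of the 12 dim genes was called in any of the 9 comparisons, although some had large estimates. CYP71B36 gave 117 and 102 in wild type in air, 7.32 and 4.42 in ein5 in air and 16.2 and 68.2 in ein2 in air. The groups of wild type and ein5 did not overlap, and the log2 difference was -2.52 ± 0.80 (limma, adjusted p = 0.0794). In wild type its change on ethylene was -1.37 ± 0.80 (adjusted p = 0.358), from arrays at 6.24 and 89.6. CYP71B38 gave 55.3 and 29.6 in wild type in air and 137 and 211 in ein5 in air, a difference of 1.71 ± 0.60 (limma, adjusted p = 0.113). Its ethylene response in ein2 differed from that in wild type by -1.85 ± 0.85 (adjusted p = 0.291).

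CYP78A9, of a subfamily known for promoting growth of floral organs and fruit, gave 33.8 and 42.3 in wild type in air and 116 and 186 in ein2 in air. The difference was 1.60 ± 0.76 (limma, adjusted p = 0.324). Its 2 ein5 air arrays gave 302 and 35.1, a wider gap than that between wild type and ein2. CYP71B22 gave 93.0 and 47.5 in ein5 in air and 227 and 142 after ethylene, a change of 1.24 ± 0.89 (adjusted p = 0.653). CYP71B16 gave a mean of 60.5 ± 47.1 in ein2 in air and 17.4 ± 17.7 after ethylene (SD, n = 2; -1.15 ± 0.72, adjusted p = 0.661). CYP71B24 gave 115 and 123 in wild type after ethylene against 12.2 and 67.6 in ein5 (-1.48 ± 0.92, adjusted p = 0.428).

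Of the other dim genes, CYP79A2 encodes the enzyme that turns phenylalanine into its aldoxime for benzylglucosinolate and gave 4.46 to 36.4. CYP71B31, named in the fixed list of terpenoid and coumarin enzymes, gave 3.74 to 76.7. CYP71B30P, a pseudogene by its name but protein-coding in the gene table, gave 6.82 to 97.9, and CYP71B27, a transcribed pseudogene in that table, gave 35.0 to 257. CYP71B21 gave 1.92 to 89.8 and CYP71B25 gave 8.88 to 77.5. In 8 of the 12 at least 1 array lay at or below the offset of 16 that was added before the logarithm. The deposited table gives no detection call, so whether these signals differ from background was not measured.

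**Figure D4:**
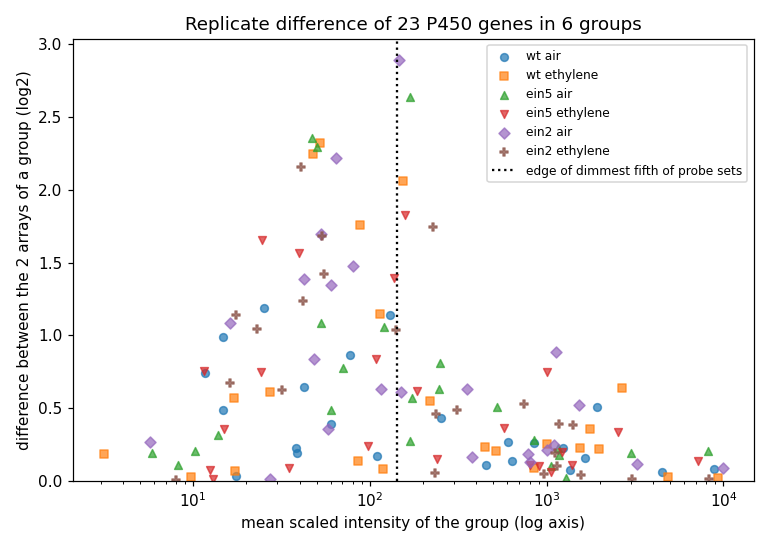
Difference between the 2 arrays of a group (log2) against the mean scaled intensity of that group (log axis) for the 23 P450 genes; each point is 1 gene in 1 group, and the dotted line is the signal of 142.6 below which the lowest 20% of probe sets lie. The widest pairs, CYP71B22 in ein2 air at 2.89 and CYP78A9 in ein5 air at 2.64, have group means of 146 and 168, just above the line.

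The replicate differences followed the signal. For the 11 brighter genes replicate arrays differed by a median of 0.15 to 0.23 log2 units over the 6 groups. For the 12 dim genes it was 0.53 to 1.22, with the highest medians in ein2 in air (1.22) and ein2 after ethylene (1.09). CYP71B35 was the widest brighter gene, since its ein5 ethylene arrays at 257 and 60.8 differed by 1.83.

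The position of the genes was not used to choose them. In the gene order of TAIR10.1 most of the genes fell into 3 runs. The longest holds 11 members, from CYP71B16 (AT3G26150) to CYP71B37 (AT3G26330), within a stretch of 24 genes of which 18 are P450 genes by symbol, and 5 of its member pairs are direct neighbours. Of these 11, CYP71B34 was called on ethylene in wild type and CYP71B23 against wild type in ein5 after ethylene. CYP71B35, CYP71B36 and CYP71B37 follow CYP71B34 directly and were not called on ethylene in wild type, at -0.21 ± 0.54, -1.37 ± 0.80 and -0.28 ± 0.27 (limma, adjusted p = 0.883, 0.358 and 0.625). CYP71B22, the direct neighbour of CYP71B23, was likewise not called in ein5 after ethylene (1.17 ± 0.89, adjusted p = 0.537). Another run holds CYP71B27, CYP71B28 and CYP71B29, and the last one CYP71B5, CYP71B30P and CYP71B31. CYP71B28 lies next to CYP71B29 and had differences from wild type of -0.33 ± 0.29 in ein2 in air (adjusted p = 0.645) and -0.83 ± 0.29 in ein5 after ethylene (adjusted p = 0.122), against the called -0.72 and -0.75 of its neighbour. All 23 probe sets have the plain suffix of the array maker, but related genes of this kind can share sequence, so signal from a near copy was not tested.

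Genes that work beside P450 enzymes in the same pathways were taken from 7 lists of 108 genes, of which 10 were measured and named. In wild type on ethylene 3 of the 10 were called lower and 0 higher, against 6.28% and 3.82% of all probe sets. WSD1, which encodes a wax ester synthase, gave 1735 and 1626 in air and 491 and 571 after ethylene (-1.64 ± 0.24, limma, adjusted p = 0.000445). GID1A, a gibberellin receptor, gave 2979 and 3648 in air and 2075 and 2234 after ethylene. It changed by -0.61 ± 0.14 (adjusted p = 0.0141), and UGT74B1, a glucosyltransferase of glucosinolate synthesis, by -0.49 ± 0.12 (adjusted p = 0.0181). In ein2 WSD1 gave 943 and 795 in air and 755 and 829.5 after ethylene, and its response differed from that of wild type by 1.51 ± 0.34 (adjusted p = 0.0242), the 1 call among the 10 where 3.75% of all probe sets were called. After ethylene 3 of the 10 were called in ein2 against wild type, where 9.87% of all probe sets were. The mutant exceeded wild type in UGT74B1 (0.50 ± 0.12, adjusted p = 0.015) and in HCT, an acyltransferase of lignin synthesis (0.56 ± 0.13, adjusted p = 0.0127), and was lower in GID1C (-0.68 ± 0.20, adjusted p = 0.0462). None of the 10 was called on ethylene in ein5 or ein2, where 1.62% and 0.514% of all probe sets were. Against wild type none was called in ein5 or ein2 in air (5.8% and 2.71% of all probe sets) or in ein5 after ethylene (5.08%). In ein5 WSD1 gave 1147 and 909 in air and 408 and 658 after ethylene (-0.96 ± 0.24, limma, adjusted p = 0.0671). Its response in ein5 differed from that of wild type by 0.68 ± 0.34 (adjusted p = 0.493), which was not called. At the lists' level, glucosinolate genes had 3 of 19 measured, gibberellin genes 3 of 14, phenylpropanoid genes 2 of 19, wax, cutin and suberin genes 1 of 22 and electron donors 1 of 9 (ATR3, a diflavin reductase, not called). The brassinosteroid and sterol list and the abscisic acid and jasmonate list had 0 members measured and named.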

How the data were processed

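The deposited table holds a linear intensity per probe set. Arrays were quantified by the authors with GeneChip Suite 3.2 and managed with GeneSpring 4.2, per the labels' protocols. With 2% of values trimmed from either end, the deposited intensities averaged 2480 to 2487 on every array. How the authors brought them to this common level is not given in the sources used here. Following the series text, an array's median over values above 10 served as its scale, and all arrays were brought to the average of these medians (factors 0.949 to 1.07). Log2 changes are on the log2(value + 16) scale, which makes those of dim probe sets smaller than the same ratios without the offset. Whether the dim signals differ from background was not measured. Values written as fold are ratios of group mean signals without the offset. Annotation named 1 gene for 13513 probe sets, several for 503 and none for 8730.

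A linear model with 1 mean for each of the 6 groups was fitted over the 12 arrays with limma 3.58.1 in R 4.3.3, with a variance trend (6 residual and 7.89 prior degrees of freedom). Tests were two-sided, with Benjamini-Hochberg adjustment over 22746 probe sets. Of the 9 comparisons, 7 were listed at the start and the 2 of mutant with wild type after ethylene were added after values had been seen. The fit was tested on simulated data. These had independent normal scatter with variances taken from the fit itself. They therefore cannot show whether scatter on the real arrays is normal or whether replicates are independent. Members and lists were chosen with earlier results of these data known. Named were the called genes, the 3 brightest, the largest uncalled change of each comparison and the called partner genes; the other members were added so that all 23 are accounted for. Same-numbered replicates did not vary together (correlations -0.04 to 0.07 over 15 pairs of groups). Precision is limited by the number of arrays, 2 in each group, and is lower for dim probe sets.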

Additional observations from a re-analysis of the deposited data

How the results depend on the processing

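CYP718 kept its direction in all 7 comparisons that called it and its call on ethylene in all 3 genotypes under each of 19 alternatives, with log2 changes of 2.84 to 3.11 in wild type, 2.93 to 3.99 in ein5 and 3.28 to 4.13 in ein2. Its difference of response in ein5 ranged from -0.0466 without ein5 air 1, a reversed sign, to 1.01 without ein5 air 2, where 1 array remains in that group and is assumed to vary like the others. Without a variance trend the P450 calls were 1 in wild type on ethylene, 0 in ein5 in air, 1 in ein2 in air and 2 in ein5 after ethylene. With only the compared groups fitted they were 1, 0 and 1, and 1 in ein5 after ethylene. Without dim probe sets 2 genes were called in ein5 in air, CYP718 and CYP71B23. Leaving out 1 array at a time gave 1 to 2 calls in wild type on ethylene, 1 to 3 in ein5 in air, 1 to 2 in ein2 in air, 0 to 3 in ein5 after ethylene, 1 to 2 in ein2 after ethylene, 0 to 1 for the difference of response of ein2 and 0 to 0 for that of ein5. The 3 calls in ein5 in air arose without wild-type ethylene 1 or 2 and were CYP718, CYP71B34 and CYP71B36. On ethylene in ein5 and in ein2 the count was 1 throughout. Quantile normalization, values as deposited, an offset of 64 and the replicate block changed no count of called P450 genes; with the block there were 2 in wild type on ethylene. Averaging probe sets of a gene could not be run, since no member has over 1. The causes were not tested. The depth behind a value is unknown for arrays, and the dim genes are limited by their signal.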
